A study of Homo sapiens with 2 samples.

Results

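The miR-181 family was described in small RNAs recovered from lysate of MDA231 cells, an established human line from triple-negative breast cancer (MDA-MB-231). The family was taken as 6 mature miRNAs, chosen by name from the 2588 names in the deposited count tables. They are the 5p strands hsa-miR-181a-5p, hsa-miR-181b-5p, hsa-miR-181c-5p and hsa-miR-181d-5p, and the 3p strands hsa-miR-181a-3p and hsa-miR-181a-2-3p; the species prefix is left out below. The study had 2 groups with 1 library each. In the bait library, parental MDA231 lysate had passed over amylose resin that held the long non-coding RNA MACC1-AS1, transcribed in vitro with an MS2 tag and fixed through a fusion of maltose-binding protein and MS2 coat protein. The no-bait library came from the same line and had no RNA substrate, per the labels. In both cases the bound material was released with maltose and its miRNAs were sequenced, and the comparison asks which of them bind the MS2-tagged transcript. The no-bait resin held neither an unrelated RNA nor MS2 hairpins alone, so recovery through MACC1-AS1 and through its tag cannot be told apart. The bait library held 1047269 counts and the no-bait library 269716, and the bait library was 3.88 times as deep.

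A miRNA hairpin is cut by Drosha and Dicer into a short duplex of a 5p and a 3p strand. The strand kept by an Argonaute protein is called the guide, and its partner, the passenger, is mostly degraded. Targets are recognised largely through the seed, bases 2 to 8 of the guide. The miR-181 guides lie on the 5p arm and are best known from lymphocytes, where miR-181a tunes T cell receptor sensitivity in mice. Below, guide and passenger name the miR-181 5p and 3p strands by convention and not by their levels in these libraries. In breast cancer cells miR-181a is known as a miRNA raised by TGF-beta.

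The mature sequences are shown because miR-181a-5p and its 3p strands differed in their ratios. All 6 members were matched by name to RefSeq on GRCh38.p14. The seed is in capitals, and each sequence runs 5′ to 3′.
miR-181a-5p: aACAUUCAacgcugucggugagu
miR-181b-5p: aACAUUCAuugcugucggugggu
miR-181c-5p: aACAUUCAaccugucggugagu
miR-181d-5p: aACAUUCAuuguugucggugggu
miR-181a-3p: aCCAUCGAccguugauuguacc
miR-181a-2-3p: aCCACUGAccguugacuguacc
All 4 guides share a seed, which in the RefSeq table is also that of miR-4262 and of no other mature miRNA listed there. Counting from the 5′ end of the first-named sequence, miR-181b-5p differs from miR-181a-5p by A9U, C10U and A21G, with the base of miR-181a-5p written first. miR-181d-5p differs from miR-181b-5p by C12U alone, and miR-181c-5p equals miR-181a-5p without its base 11. The 3p strands have a seed each that no other mature miRNA of that table shares. From miR-181a-3p to miR-181a-2-3p the differences are U5C, C6U and U16C. The sources used here do not say how the authors divided reads that match several of these names, so the split among the guides is uncertain.

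The family comes from 3 pairs of hairpins. MIR181A1 and MIR181B1 lie 61 bases apart on chromosome 1 in an intron of the non-coding host gene MIR181A1HG. MIR181A2 and MIR181B2 lie 1158 bases apart on chromosome 9 in an intron of MIR181A2HG, antisense to an intron of the nuclear receptor gene NR6A1. MIR181C and MIR181D lie 66 bases apart on chromosome 19 in an intron of NANOS3. Both miR-181a hairpins give the same 5p strand, so their 3p strands alone tell the loci apart. Their RefSeq hairpins, on the minus strand at chr1:198859044-198859153 and the plus strand at chr9:124692442-124692551 of GRCh38.p14, are shown with the mature strands in capitals.
MIR181A1: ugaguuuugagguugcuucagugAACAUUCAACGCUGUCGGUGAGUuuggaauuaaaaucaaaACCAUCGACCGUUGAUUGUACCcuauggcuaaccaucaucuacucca
MIR181A2: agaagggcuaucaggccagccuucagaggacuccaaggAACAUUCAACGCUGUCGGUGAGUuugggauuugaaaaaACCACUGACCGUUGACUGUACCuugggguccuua
In each hairpin the first run of capitals is miR-181a-5p. The second run is miR-181a-3p in MIR181A1 and miR-181a-2-3p in MIR181A2.

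miR-181a-5p and miR-181b-5p took larger shares of the bait library, miR-181a-2-3p took a smaller share, miR-181a-3p and miR-181d-5p passed neither rule, and miR-181c-5p was not seen. Levels are given as RPM, the count scaled to the library's total miRNA count, with exact Clopper-Pearson 95% intervals. Testing required 30 or more counts over the 2 libraries. Higher calls needed a bait over no-bait ratio of 2 or more, lower calls 0.5 or less, and in each case an exact 95% interval of the ratio that excluded 1. All intervals and floors cover counting error only. With 1 library per group no difference has a replicate check, so the calls compare these libraries and not the conditions.

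Of the 6 members 5 were tested, of which 2 were called higher and 1 lower. Over the whole table there were 231 tested miRNAs, of which 39.4% were called higher and 26.8% lower. The members' median log2 ratio was 1.01, against 0.55 over all tested miRNAs, whose quartiles were -1.09 and 1.86. With 5 members tested, this median is the value of miR-181d-5p, whose own ratio could not be told from 1. The members ranged from place 27 for miR-181a-5p to place 207 for miR-181a-2-3p in the order of the ratio. For comparison, all 5 guides of the miR-30 family were called higher, with a median log2 ratio of 2.65. Of the 9 let-7 guides 2 were higher and 2 lower, with a median of -0.68. The 3 tested miR-181 guides had a median of 2.42.

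**Figure D1:**
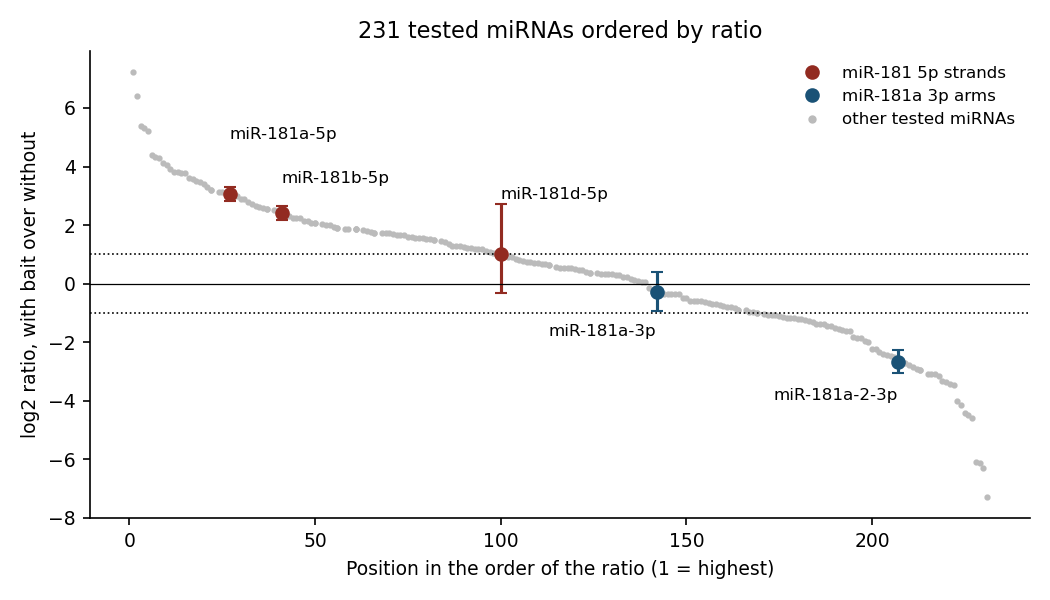
Each point is 1 of the 231 tested miRNAs, placed by its order (x axis, 1 is the highest ratio) and its log2 ratio of bait over no-bait share (y axis). Red points are miR-181 5p strands and blue points 3p strands, with exact 95% counting intervals, and dotted lines mark 2-fold. miR-181a-5p and miR-181b-5p stand above the upper line and miR-181a-2-3p below the lower one.

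miR-181a-5p, the main guide of the family, had 5425 counts with bait and 168 without. This corresponded to 5180 RPM with bait (5044 to 5319) and 623 RPM without (532 to 724). The intervals lay far apart, and the ratio was 8.32 (7.13 to 9.76). It was the 22nd most abundant name with bait and the 55th without.

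miR-181b-5p, which shares the seed and is made from the neighbouring hairpins, had 3075 counts with bait and 148 without. Its level was 2936 RPM with bait (2833 to 3042) and 549 RPM without (464 to 645). The ratio was 5.35 (4.54 to 6.35), so this guide was also called higher, by a smaller factor than miR-181a-5p. The gain of miR-181a-5p relative to miR-181b-5p was an odds ratio of 1.55 (1.23 to 1.96), a value that does not depend on how the libraries are scaled.

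miR-181d-5p, a guide from the chromosome 19 pair, was rare. It had 39 counts with bait, or 37.2 RPM (26.5 to 50.9), and 5 counts without, or 18.5 RPM (6.02 to 43.3). These intervals overlapped, and the ratio of 2.01 (0.791 to 6.53) could not be told from 1 at this depth. With DESeq2 size factors the ratio was 2.69 (1.06 to 8.75) and passed the rule. miR-181d-5p differs from the far more abundant miR-181b-5p by 1 base, so some of its counts may be reads of that miRNA, which was not tested. miR-181c-5p, the other guide from chromosome 19, had 0 counts in each library. This allows up to 2.86 RPM with bait and 11.1 RPM without, the level of 3 counts.

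Summed over the 4 guides, the family had 8539 counts with bait and 321 without. These were 0.815% of counts with bait (0.798% to 0.833%) and 0.119% without (0.106% to 0.133%). Its ratio was 6.85 (6.13 to 7.68). If each read was counted once, the sum does not depend on how reads were divided among the guides. With DESeq2 size factors it was 9.18 (8.21 to 10.3).

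Of the 3p strands 1 was called. miR-181a-2-3p, the passenger of the chromosome 9 hairpin MIR181A2, had 93 counts with bait and 152 without, although the bait library was the deeper. Its level was 88.8 RPM with bait (71.7 to 109) and 564 RPM without (478 to 661). It was called lower, 6.35-fold (4.87 to 8.31). A gain of other miRNAs lowers every other share, and whether fewer molecules of this strand were recovered cannot be read from shares.

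miR-181a-3p, the passenger of the chromosome 1 hairpin MIR181A1, had 82 counts with bait and 26 without. Its level was 78.3 RPM with bait (62.3 to 97.2) and 96.4 RPM without (63.0 to 141). The intervals overlapped, and the ratio of 0.812 (0.517 to 1.32) passed neither rule. With DESeq2 size factors it was 1.09, so no direction is given for this strand. The passengers themselves differed: the odds ratio of miR-181a-3p over miR-181a-2-3p, bait over no bait, was 5.13 (3.01 to 8.95).

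**Figure D2:**
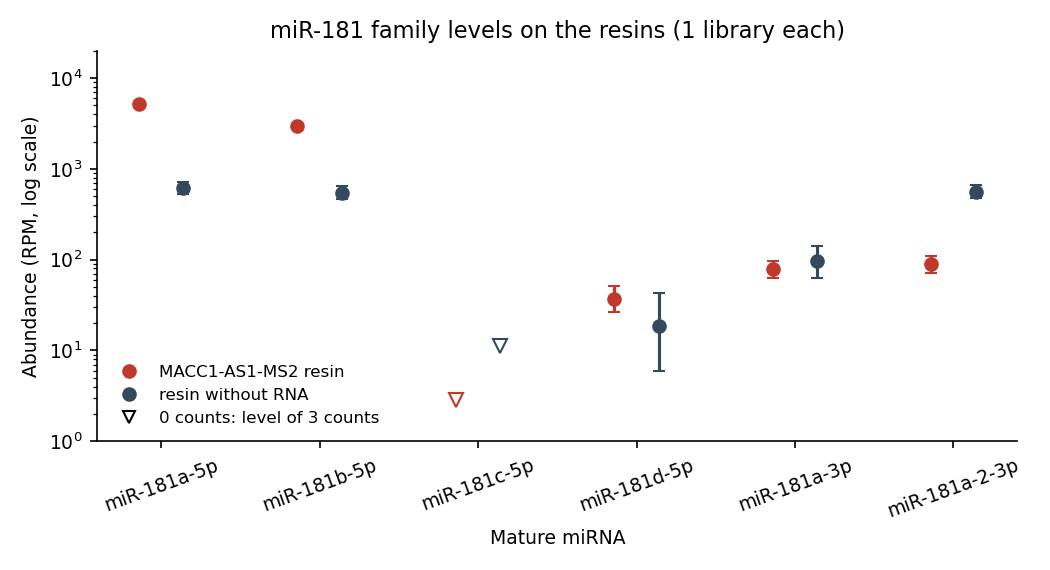
Abundance of the 6 members in RPM (log scale) in the bait library (red, left of each pair) and the no-bait library (dark blue, right), with exact 95% counting intervals that are smaller than the point for the most abundant members. Open triangles stand at the level of 3 counts for miR-181c-5p, which had 0 counts in both. miR-181a-5p and miR-181b-5p are higher with bait and miR-181a-2-3p is lower.

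The spacing of the members differed between the libraries. With bait, miR-181a-5p exceeded miR-181b-5p 1.76-fold (1.69 to 1.84), and miR-181b-5p exceeded miR-181a-2-3p 33.1-fold (26.9 to 41.1). miR-181a-2-3p and miR-181a-3p could not be told apart (1.13-fold, 0.834 to 1.55), and miR-181d-5p followed below miR-181a-3p, which exceeded it 2.10-fold (1.42 to 3.16). Without bait, miR-181a-5p, miR-181a-2-3p and miR-181b-5p formed a group at 623, 564 and 549 RPM in which neighbours could not be told apart. In that group miR-181a-5p exceeded miR-181a-2-3p 1.11-fold (0.882 to 1.39), and miR-181a-2-3p exceeded miR-181b-5p 1.03-fold (0.814 to 1.30). miR-181b-5p then exceeded miR-181a-3p 5.69-fold (3.73 to 9.001), and miR-181a-3p exceeded miR-181d-5p 5.2-fold (1.96 to 17.3). These orders compare counts of different sequences, which small RNA library preparation does not recover equally.

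The make-up of the family shows the same shift without reference to the rest of the library. miR-181a-5p held 62.3% of the family's 8714 counts with bait (61.2% to 63.3%) and 33.7% of its 499 counts without (29.5% to 38.0%). miR-181b-5p held 35.3% with bait (34.3% to 36.3%) and 29.7% without (25.7% to 33.9%). miR-181a-2-3p held 1.07% with bait (0.862% to 1.31%) and 30.5% without (26.4% to 34.7%). The share of miR-181a-3p was 0.941% with bait (0.749% to 1.17%) and 5.21% without (3.43% to 7.54%). Among the guides alone, miR-181a-5p took 63.5% with bait (62.5% to 64.6%) and 52.3% without (46.7% to 57.9%).

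**Figure D3:**
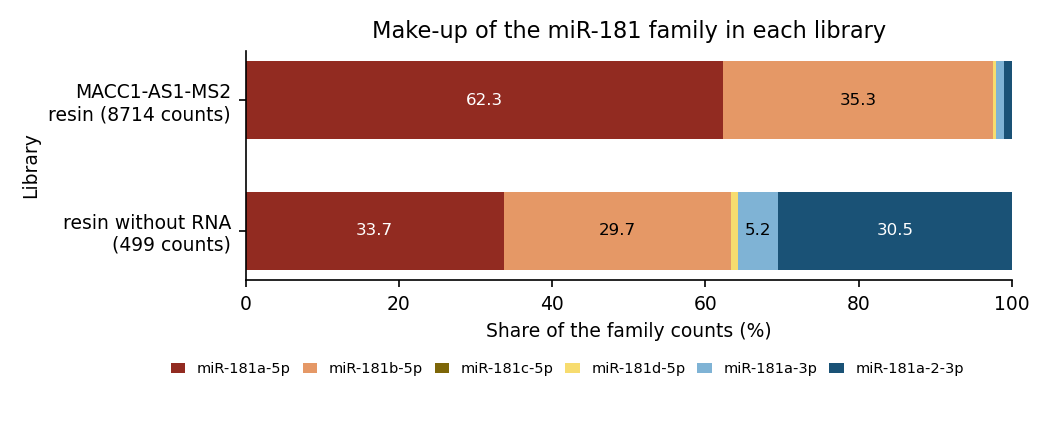
Share of each member in the family's counts (x axis, percent) in the bait library (upper bar, 8714 counts) and the no-bait library (lower bar, 499 counts). miR-181a-2-3p, the dark blue segment, holds 1.07% of the upper bar and 30.5% of the lower one, and miR-181c-5p has no segment because it had 0 counts.

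Set against its passengers, miR-181a-5p was 58.3 times as abundant as miR-181a-2-3p with bait (47.5 to 72.4) and 1.11 times without (0.882 to 1.39). Its odds ratio over this passenger was 52.6 (38.6 to 72.1). Against miR-181a-3p it was 66.2 times as abundant with bait (53.2 to 83.3) and 6.46 times without (4.26 to 10.2), an odds ratio of 10.2 (6.15 to 16.6). The guide thus gained on each passenger beyond counting error. Since miR-181a-5p from MIR181A1 and MIR181A2 cannot be separated, neither value is that of 1 hairpin.

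This separation of strands was set beside other hairpins. RefSeq sequences were found for 203 of the 231 tested miRNAs, and 35 pairs of strands from a shared hairpin had both strands tested. miR-181a-5p is the 5p strand of both its hairpins and enters in 2 pairs. Strands were compared as 5p against 3p, by name, and pairs were ordered by how far apart the ratios lay in either direction. The 5p strand had the larger ratio in 20 of 35 pairs. The median pair, MIR324, lay 4.63-fold apart, but both its strands had 0 counts without bait. A 0 count was set to 3 in ratios, so this value compares its strands within the bait library alone. MIR181A2, at 52.8-fold, stood in place 3 of this order and MIR181A1, at 10.2-fold, in place 10. Ahead of MIR181A2 were MIR106B at 107-fold, with an odds ratio of 5p over 3p between 29.2 and 891, and MIR25, where the strands lay 57.2-fold apart the other way, with an odds ratio of 5p over 3p between 0.00349 and 0.0539. The odds ratio intervals of 28 of the other 34 pairs allowed less separation than the lower bound for MIR181A2. Those of MIR106B, MIR25, MIR10A, MIRLET7A2, MIR324 and MIR132 did not. Among these, the interval of MIR132 (0.526 to 43.8) included 1 and that of MIR324 had no bounds. The ratios of the strands in MIR132 and MIR324 thus could not be told apart. Strands were called in opposite directions in 4 pairs, MIR181A2, MIR27A, MIR10A and MIR361. With DESeq2 size factors there were also 4 such pairs, MIR181A2 and MIR27A with MIR27B and MIR423.

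**Figure D4:**
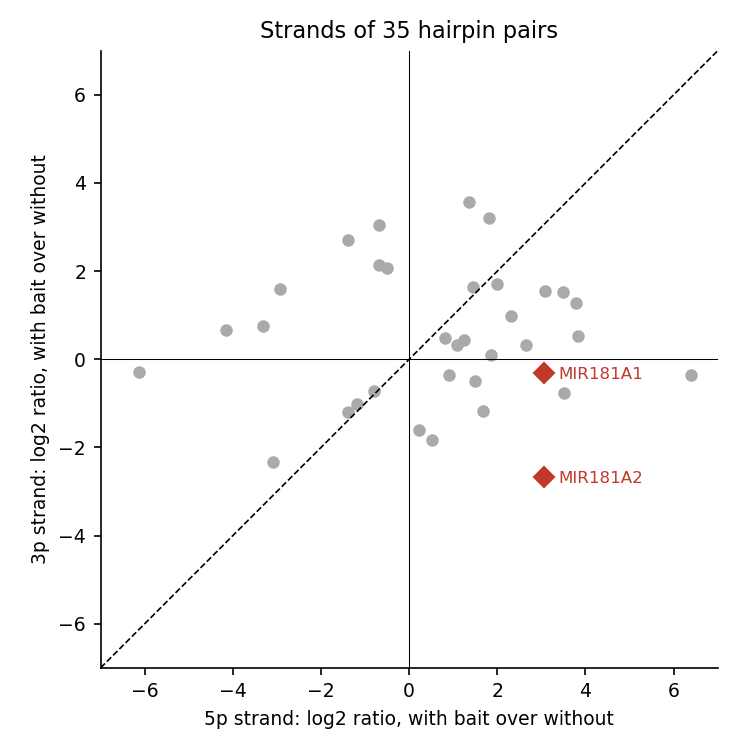
The log2 ratio of bait over no-bait share of the 3p strand (y axis) against that of the 5p strand (x axis) for 35 pairs of strands from a shared hairpin. The dashed line marks equal ratios. The red diamonds are MIR181A1 and MIR181A2, which share miR-181a-5p at 3.06, with their 3p strands at -0.30 and -2.67.

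The remaining names of the family carried almost no reads. miR-181c-3p had 2 counts with bait and 0 without, miR-181b-3p had 1 and 0, and miR-181b-2-3p had 1 and 1. miR-181d-3p and miR-4262, the other miRNA with the guides' seed, had 0 counts in each library. All of these lay at or under the floor of 3 counts. The passengers of miR-181b were thus at most 1 count where their guide had 3075 and 148, unlike the passengers of miR-181a.

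Base composition was described because the ratio varied with it in the table. Spearman's rho between the log2 ratio and GC content was -0.30 across 203 miRNAs, and with length it was 0.24; these points share the same 2 libraries. The median GC content was 45.5% for miRNAs called higher and 52.4% for those called lower. miR-181a-5p and miR-181b-5p have 47.8% GC and 23 bases. miR-181d-5p, which passed neither rule, has the same length and a lower GC content of 43.5%. miR-181a-3p has 50.0% GC and miR-181a-2-3p 54.5%, with 22 bases each. The part of composition in the result was not tested.

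The annotated MACC1-AS1 transcript of 639 bases (GENCODE release 29, gene at chr7:20141916-20153531, plus strand, 4 exons) was searched for seed matches on its own strand. TGAATGT, the complement of bases 2 to 8 of the guides, was not found, nor was its 6-base part GAATGT for bases 2 to 7. TCGATGG for miR-181a-3p and TCAGTGG for miR-181a-2-3p, and their parts CGATGG and CAGTGG, were not found either. Among 4158 long non-coding transcripts of 576 to 702 bases, 5.65% held TGAATGT and 17.4% held GAATGT, which lies within TGAATGT. For the 3p strands 0.722% held TCGATGG and 5.34% held TCAGTGG, while 5.03% held CGATGG and 26.3% held CAGTGG. The isoform and the tag on the resin were not analysed here, so the search says only that these letters are not in the annotated sequence.

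The miRNAs nearest in level to the guides, by Euclidean distance of log2 RPM over the 2 libraries, were miR-191-5p, miR-23b-3p and miR-23a-3p for miR-181a-5p. Their distances were 0.657, 0.842 and 0.992. For miR-181b-5p they were miR-191-5p, miR-23b-3p and let-7b-5p, at 0.210, 0.344 and 0.453. miR-191-5p had 3290 RPM with bait and 601 RPM without, a ratio of 5.48 (4.68 to 6.45). In the order of the ratio miR-181a-5p stood between miR-16-5p at 8.49 and let-7a-2-3p at 8.24, and miR-181b-5p between miR-191-5p and miR-24-2-5p at 4.95. miR-181d-5p stood between miR-501-3p at 2.03 and miR-24-3p at 1.98. miR-181a-3p stood between miR-25-3p at 0.819 and miR-378i at 0.805. miR-181a-2-3p stood between miR-4485-3p at 0.177 and miR-1268a at 0.155.

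miR-181a belongs to the miRNAs linked to TGF-beta in epithelial and breast tumour cells, and 10 others of that kind were listed. Of the 9 tested, 4 were called higher and 1 lower, against 39.4% higher and 26.8% lower over all tested miRNAs, with a median log2 ratio of 0.98. miR-21-5p, raised in many tumours, had 167088 RPM with bait and 97328 RPM without, a ratio of 1.72 (1.69 to 1.74) that passed neither rule. miR-25-3p, of the miR-106b-25 cluster, also passed neither, at 0.819 (0.790 to 0.849). miR-23a-3p was called higher, with 9864 RPM with bait and 489 RPM without, a ratio of 20.2 (17.0 to 24.1).

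miRNAs of basal breast lines (miR-21-5p, miR-31-5p, miR-100-5p, miR-221-3p and miR-222-3p) held 47.7% of counts with bait and 59.5% without. Most of each sum was miR-100-5p, at 29.6% with bait and 45.3% without, and miR-21-5p, at 16.7% with bait and 9.73% without. miR-222-3p had 8028 RPM with bait and 40198 RPM without, a ratio of 0.200 (0.194 to 0.205), and was called lower. miR-221-3p had 5596 RPM with bait and 4405 RPM without, and miR-31-5p had 9 counts with bait and 4 without. Of the 4 tested, 0 were called higher and 1 lower, against 39.4% higher and 26.8% lower over all tested miRNAs. The 7 epithelial miRNAs summed to 181 RPM with bait and 111 RPM without. Most of each sum was miR-200b-3p, at 138 RPM with bait and 104 RPM without. miR-200c-3p had 20 counts with bait and 1 without, miR-200a-3p had 18 and 1, and miR-429 had 8 and 0. miR-141-3p, miR-205-5p and miR-375 were at 0 in both libraries. Since miR-181 is abundant in lymphocytes, 7 blood cell miRNAs were also summed. They reached 432 RPM with bait and 864 RPM without, against 8154 RPM and 1190 RPM for the miR-181 guides, and most of each sum was miR-486-5p, at 369 RPM with bait and 793 RPM without. Of the 7, 3 had 0 counts with bait and 4 without. The lymphocyte miR-150-5p, the myeloid miR-223-3p and miR-144-3p were at 0 in both libraries. Others of the list were seen: miR-142-5p had 45 counts with bait and 9 without, miR-142-3p had 17 and 0, and miR-451a had 4 and 10.

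In the authors' deposited table, which rests on the same counts and does not name its test, the log2 fold change was 3.06 for miR-181a-5p (p = 7.49e-06). The authors' deposited table gave 2.42 for miR-181b-5p (p = 0.000239) and -2.67 for miR-181a-2-3p (p = 0.00050). For miR-181d-5p and miR-181a-3p the p-values of the authors' deposited table were 0.259 and 0.896. These p-values compare 2 libraries and not the conditions.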

How the data were processed

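Small RNA reads were counted in 2 libraries of MDA231 lysate, 1 with and 1 without MACC1-AS1-MS2 on the resin. The authors deposited, per the file headers, a raw count per library for 2588 names of mature miRNAs. They also deposited a normalized value, an RPM that equalled the count scaled to the library total within 0.00994 RPM. A further table deposited by the authors gives a log2 fold change and a p-value per miRNA. The submitters' processing notes name BWA. The sources used here do not give its version, the miRNA reference, the build, the trimming or the treatment of reads matching several names.

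Counts were divided by each library's total. Ratios had exact conditional binomial intervals and odds ratios exact conditional intervals (scipy 1.17.1). In the point value of a ratio a 0 count was set to 3. Other scalings tried were TMM factors (edgeR 4.0.16), median-of-ratios size factors (DESeq2 1.42.0) and totals that leave out the 5 most abundant names of either library. Further alternatives were a minimum of 10 or of 100 counts, no filter on counts, a bound beyond 2-fold, the deposited RPM, 0.5 counts added to odds ratios, and every miR-181 name as denominator. Named miRNAs were all members, other miR-181 names, miR-4262, the 3 miRNAs nearest in level, neighbours in the order of the ratio, 3 abundant miRNAs of the TGF-beta list, and members of the cell type marker lists. The hairpins named beside MIR181A1 and MIR181A2 were picked after their values were seen. Every member of the basal breast, epithelial and blood cell lists was given, also with the values seen. The members and lists were chosen with earlier results of these data known.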

Additional observations from a re-analysis of the deposited data

How the results depend on the processing

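The scalings moved the median log2 ratio of all tested miRNAs by 0.15 (TMM), by 0.42 (DESeq2 size factors) and by -0.14 (totals that leave out the 5 most abundant names of either library). With DESeq2 size factors 114 miRNAs were called higher and 44 lower, so 72.2% of calls were higher, against 59.5% with library totals. The guides' summed log2 ratio was 2.78 with library totals and 3.20 with DESeq2 size factors, which follows from the changed factor. Under the same factors miR-181a-3p turned from a log2 ratio of -0.30 to 0.12, without a call in either case. They also added miR-181d-5p to the members called higher, at a log2 ratio of 1.43, which made 3. The other scalings, the count minimums of 10 and 100, no count filter and a bound beyond 2-fold each left 2 members higher and 1 lower. Without a count filter 95 of 715 miRNAs were called higher and 100 lower, and with a minimum of 100 counts 59 and 37 of 146. Summing miR-181b-5p with miR-181d-5p, chosen after the data were seen, gave a ratio of 5.24. Adding 0.5 counts moved no odds ratio beyond its interval. With every miR-181 name as denominator miR-181a-5p held 62.2% with bait and 33.6% without. Depth limits miR-181d-5p and miR-181c-5p most. No paired analysis was possible because each group held 1 library.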
